A study of Arabidopsis thaliana with 28 samples.

Results

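Jasmonate response genes and plant defensins were followed here through 8 probe sets, out of 22746 tested on each array. They were chosen by probe set identifier as readouts of the jasmonate pathway: PDF1.2a (249052_AT), PDF1.2b (257365_X_AT), JAZ1 (256017_AT), JAZ10 (250292_AT), LOX2 (252618_AT), AOS (249208_AT), OPR3 (265530_AT) and CORI3 (254232_AT). The gene names come from that choice and could not be checked, for want of a table from probe sets to genes. All 8 loci stand in the RefSeq gene table of the TAIR10.1 assembly.

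The RNA came from untreated Arabidopsis thaliana shoots (accession Col-0, 3 weeks old) and was measured on 28 arrays, in 14 groups of 2 biological replicates of 14 pooled plants each. All plants grew in a 12 h light period and were harvested 4 h after the lights came on. BAM7 and BAM8 are nuclear proteins that join a DNA-binding domain to a beta-amylase-like domain, and the series asks what the enzyme-like domain contributes to DNA recognition and to transcriptional activation. The groups were wild type, mutants in 1 or both genes (bam7, bam8, bam7 bam8), the overexpression lines BAM7_Ox and BAM8_Ox, and overexpression lines of each protein with the suffix DNA, Cat, Lig or N. The labels define neither the suffixes nor the promoter behind the transgenes, nor do they say whether a line is 1 transformant. BAM7 and BAM8 themselves could not be looked up, so neither the mutants nor the level of overexpression was checked, and the same holds for markers of the shoot. In whole shoots, fewer cells that express a gene and less of its RNA per cell cannot be told apart.

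Jasmonate is a lipid-derived hormone of wounding, insect attack and defence against necrotrophic fungi. It is made from a plastid fatty acid by lipoxygenases such as LOX2, by allene oxide synthase (AOS) and, in the peroxisome, by the reductase OPR3. Its conjugate with isoleucine leads to the breakdown of JAZ proteins, which otherwise hold back transcription factors such as MYC2, and the JAZ genes are themselves targets of these factors. PDF1.2 genes encode small antifungal defensins and are textbook markers of the branch that needs jasmonate together with ethylene, whereas LOX2 and CORI3 belong to the MYC2 branch, and these branches are known to restrain each other.

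Values are RMA intensities on a linear scale, and differences are on the log2 scale from a limma fit of all 28 arrays. A difference is called when its Benjamini-Hochberg adjusted p, taken over all 22746 probe sets, is under 0.05. Array medians lay between 23.47 and 25.84 intensity units, and 25th percentiles between 6.78 and 8.37. RMA includes a normalization between arrays, so close medians cannot show whether an array stood apart. Across the 14 groups, the moderated F test of limma called 6 of the 8 genes, against 6.15% of all probe sets. The genes were chosen with earlier results of these data known, so these shares are not a test of the set. The adjusted p was 1.58e-08 for PDF1.2b, 9.1e-05 for PDF1.2a, 0.000148 for AOS, 0.000259 for JAZ1, 0.000447 for LOX2 and 0.00248 for OPR3. JAZ10 (0.171) and CORI3 (0.192) were not called. In the 13 comparisons of a line with wild type, 10 of 104 tests of these genes were called, 4 higher and 6 lower, against 0.64% over all probe sets. All 13 use the same 2 wild type arrays, so they are not independent of one another.

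The defensins had the widest range. Both rose far above wild type in BAM7-N_Ox, and PDF1.2b rose less in BAM8-N_Ox. PDF1.2b had a lower mean than wild type in 11 of 13 lines, called in BAM8_Ox alone by a call that was not stable. PDF1.2b read 66.39 and 58.2 in the 2 wild type arrays and 1715 and 1333 in those of BAM7-N_Ox. In BAM8-N_Ox it read 130.8 and 205.2. Both N lines thus lay above wild type in each array, with BAM7-N_Ox far above BAM8-N_Ox and no overlap among these 3 groups. The other BAM7 lines read 25.26 and 50.87 in BAM7_Ox, 22.78 and 36.26 in BAM7-DNA_Ox, 22.54 and 31.42 in BAM7-Cat_Ox, and 33.02 and 28.48 in BAM7-Lig_Ox. The other BAM8 lines read 22.09 and 21.81 in BAM8_Ox, 20.06 and 21.74 in BAM8-DNA_Ox, 65.61 and 45.97 in BAM8-Cat_Ox, and 37.08 and 41.98 in BAM8-Lig_Ox. Of these 8 groups, only BAM8-Cat_Ox reached into the wild type range, in 1 array. The mutants read 31.3 and 20.34 (bam7), 44.85 and 44.98 (bam8), and 38.81 and 33.41 (bam7 bam8), all below wild type. In the order of group means, 8 of the 13 steps from one group to the next joined groups with overlapping arrays, and the steps from BAM7-N_Ox to BAM8-N_Ox and on to wild type did not overlap.

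PDF1.2a had the same extremes. It read 45.06 and 43.07 in wild type, 274.7 and 290.7 in BAM7-N_Ox, and 42.53 and 70.25 in BAM8-N_Ox. Only BAM7-N_Ox lay clear of wild type on the high side, since 1 array of BAM8-N_Ox was just below the wild type values. The highest readings among the remaining 22 arrays were 46.43 in BAM8-Cat_Ox replicate 1, 37.43 in BAM7_Ox replicate 2 and 37.36 in BAM8-Lig_Ox replicate 2. The partner arrays in BAM8-Cat_Ox and BAM7_Ox were far lower, at 15.15 and 15.42, so replicates disagreed by 3.06-fold in BAM8-Cat_Ox. The spread between replicates of PDF1.2a (pooled SD 0.464 on the log2 scale) was larger than that of 99.8% of probe sets. Each PDF1.2a difference between 2 groups had a standard error of 0.417, and tests that combine more groups had a larger one. The identifier of the PDF1.2b probe set carries an x, which in this naming marks probes that may also match other transcripts, and the RefSeq table lists further members of the family, PDF1.2c beside PDF1.2a and PDF1.3 beside PDF1.2b. The 2 defensin readings are therefore uncertain as to which family members they measure, and they are not independent of each other.

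**Figure D1:**
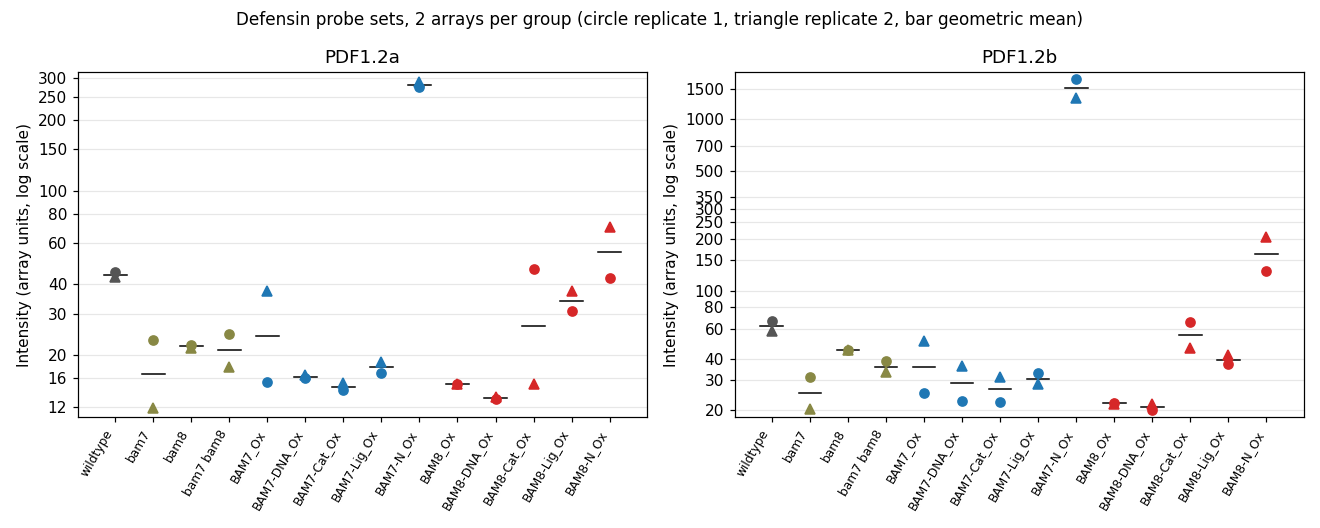
Intensity of the PDF1.2a and PDF1.2b probe sets (log axis, intensity units) in each of the 28 arrays, by group, with 1 point per array and a bar at the geometric mean of the 2 arrays. Both genes peak in BAM7-N_Ox, at 274.7 and 290.7 for PDF1.2a and 1715 and 1333 for PDF1.2b, and PDF1.2b is next highest in BAM8-N_Ox.

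In BAM7-N_Ox against wild type, 5 of the 8 genes were called, 2 higher and 3 lower, against 2.97% of all probe sets. PDF1.2b was 24.3-fold higher (log2 difference 4.6, SE 0.30, limma adjusted p = 5.43e-08), the largest difference of any probe set in that comparison. PDF1.2a was 6.41-fold higher (2.68, adjusted p = 0.000975). Against BAM7_Ox, the line without a suffix, the same 2 genes were higher by 5.4 (adjusted p = 9.58e-09, 42.2-fold) and by 3.56 (adjusted p = 5.23e-05, 11.8-fold). The median difference of the 8 genes against wild type was -0.03, beside -0.05 over all probe sets, with 4 of the 8 genes higher than wild type.

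In BAM8-N_Ox against wild type, 2 of the 8 genes were called, against 3.72% of all probe sets. PDF1.2b rose by 1.4 (2.65-fold, limma adjusted p = 0.0138) and JAZ1 fell by 1.21 (adjusted p = 0.0295). The call of PDF1.2b was lost without wild type replicate 1 (1.49, adjusted p = 0.0627) and without BAM8-N_Ox replicate 2 (1.07, adjusted p = 0.139). Against BAM8_Ox, 3 genes were called, all higher, against 1.68%: PDF1.2b by 2.90 (7.46-fold, adjusted p = 2.57e-05), PDF1.2a by 1.85 (adjusted p = 0.0282) and AOS by 0.60 (adjusted p = 0.000906). The PDF1.2a call was lost without BAM8-N_Ox replicate 2 (1.49, adjusted p = 0.251) and without either BAM8_Ox array (adjusted p = 0.0893 and 0.129).

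The shift of PDF1.2b with the N form differed between the 2 proteins, and for PDF1.2a that difference was not called. Between the N lines themselves, BAM8-N_Ox against BAM7-N_Ox, 3 genes were called against 0.813%, with PDF1.2b lower in BAM8-N_Ox by 3.21 (limma adjusted p = 1.27e-05), PDF1.2a lower by 2.37 (adjusted p = 0.00628) and AOS higher by 0.40 (adjusted p = 0.0329). The PDF1.2a call was lost without BAM7-N_Ox replicate 2 (adjusted p = 0.0741) and without BAM8-N_Ox replicate 1 (-2.01, adjusted p = 0.136). The AOS call was lost without either BAM7-N_Ox array (adjusted p = 0.255 and 0.0741) and without BAM8-N_Ox replicate 1 (0.30, adjusted p = 0.466). The test of the difference itself, each N line against its own unsuffixed line, gave -2.50 for PDF1.2b (SE 0.425, adjusted p = 0.00852), among 3 genes called against 0.55%. It was lost without BAM8-N_Ox replicate 1 (-2.17, adjusted p = 0.0655). PDF1.2a gave -1.70 in the same test (adjusted p = 0.315).

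On the low side, both defensins had a lower mean than wild type in 11 of 13 lines, and 1 of these 22 differences was called. That was PDF1.2b in BAM8_Ox, lower by 1.5 (limma adjusted p = 0.0268), the only call of the 8 genes in that line against 0.448% of all probe sets. It was lost without any 1 of the 4 arrays concerned, at adjusted p between 0.0513 and 0.208. PDF1.2b in BAM8-DNA_Ox (-1.57, adjusted p = 0.0582) and PDF1.2a in BAM8-DNA_Ox (-1.74) were not called. These low readings share the wild type arrays, so the 11 lines are not 11 separate observations.

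JAZ1 encodes a repressor that jasmonate signalling destroys and that the same signalling induces. Its groups were split into a low and a high set on these same JAZ1 values, so the split is a description and was not tested. The arrays of the sets did not overlap, but 30.68 in the low set came near 35.66 in the high set. The low set read 17.06 and 12.63 in BAM7-N_Ox, 20.5 and 17.25 in BAM8-Cat_Ox, 30.68 and 14.99 in BAM8_Ox, and 26.08 and 18.8 in BAM8-N_Ox. Wild type read 53.6 and 49.08, and the lowest array of the other 10 groups was BAM7-Cat_Ox replicate 2 at 35.66. The highest group mean was that of BAM8-Lig_Ox, at 55.36 and 96.16, followed by the DNA lines of both proteins, at 65.42 and 67.88 for BAM8-DNA_Ox and 59.15 and 66.72 for BAM7-DNA_Ox. The mean step between the sets, from BAM7-Lig_Ox (37.16 and 43.63) down to BAM8-N_Ox, was 0.86 on the log2 scale. In the order of all 14 group means, 10 of the 13 steps joined groups with overlapping arrays.

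Against wild type, JAZ1 was called lower in 3 lines. It fell by 1.80 in BAM7-N_Ox (limma adjusted p = 0.00172), a call kept in each alternative tried, by 1.45 in BAM8-Cat_Ox (adjusted p = 0.0311, 1 of 8 genes called against 0.594%) and by 1.21 in BAM8-N_Ox. The BAM8-Cat_Ox call was lost without either wild type array (adjusted p = 0.208 and 0.0601) and without BAM8-Cat_Ox replicate 2 (-1.32, adjusted p = 0.246). The BAM8-N_Ox call was lost without any 1 of its 4 arrays, at adjusted p between 0.0517 and 0.187. BAM8_Ox, whose replicates differed by 2.05-fold, gave -1.26 and was not called (adjusted p = 0.0834).

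The synthesis genes LOX2, AOS and OPR3 shared the low groups of JAZ1 in part. LOX2, the lipoxygenase of the chloroplast pathway, read 1629 and 1431 in wild type. It read 852.4 and 828.1 in BAM7-N_Ox, 969.1 and 732.5 in BAM8-Cat_Ox, and 964.2 and 780.8 in BAM8_Ox. These 3 lines lay below every array of the remaining groups except BAM8-N_Ox, which read 1506 and 952.1 and so reached both ranges. The highest group was bam7 bam8, at 1922 and 2279, and the highest single array was BAM8-Lig_Ox replicate 2, at 2518. LOX2 fell by 0.86 in BAM7-N_Ox against wild type (limma adjusted p = 0.02). That call was lost without wild type replicate 1 (-0.77, adjusted p = 0.177) and without either BAM7-N_Ox array (adjusted p = 0.0894 and 0.152). In BAM8-Cat_Ox and BAM8_Ox the differences of -0.86 and -0.82 were not called (adjusted p = 0.0579 and 0.094).

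OPR3, the reductase that acts on the cyclic precursor OPDA, read 141.3 and 144 in wild type, 82.51 and 87.89 in BAM7-N_Ox, and 95.59 and 86.63 in BAM8_Ox. BAM8-Cat_Ox followed at 109.8 and 113.6 and BAM8-N_Ox at 133.6 and 109.8. All 4 lines lay below both wild type arrays, and they are the same 4 lines as the low set of JAZ1. Against wild type, OPR3 was not called in BAM8_Ox, BAM8-Cat_Ox or BAM8-N_Ox. The share of all probe sets that lie apart from wild type in this way is not given here. For OPR3 they did not form a separate set, since BAM7-Cat_Ox replicate 2 (122.9) lay below 1 array of BAM8-N_Ox and BAM7-Lig_Ox replicate 1 (136.1) lay below wild type. The highest arrays were BAM8-Lig_Ox replicate 2 at 262.8 and BAM7-DNA_Ox replicate 1 at 209.8. The fall of 0.74 in BAM7-N_Ox against wild type was just called (limma adjusted p = 0.0473) and was lost in 26 of 37 alternatives. Without any 1 of the 4 arrays compared the adjusted p lay between 0.109 and 0.201, and 22 of the 28 single arrays, most of them of other groups, ended the call when left out. Against BAM7_Ox, OPR3 fell by 0.97 in BAM7-N_Ox (adjusted p = 0.00869) and JAZ1 by 1.79 (adjusted p = 0.00161), which with the 2 defensins made 4 called genes, against 3.09%. The OPR3 call was lost without either BAM7-N_Ox array (adjusted p = 0.0689 and 0.0546) and without BAM7_Ox replicate 1 (-0.82, adjusted p = 0.107).

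AOS, which makes the unstable epoxide between the lipoxygenase product and OPDA, had the tightest replicates of the 8, with a pooled SD of 0.075. It read 232.2 and 223.7 in wild type and only 179 and 193.8 in BAM8_Ox, the lowest group. It was highest in BAM7-DNA_Ox, at 317.7 and 310.1, with BAM7-Cat_Ox (319.8 and 282), bam7 bam8 (305.8 and 289.9) and bam7 (297.5 and 292.9) close below and overlapping or adjoining. In BAM8-N_Ox, a group of low JAZ1, both AOS arrays lay above wild type, at 303.9 and 263.3. The rise of 0.46 in BAM7-DNA_Ox (SE 0.0869, limma adjusted p = 0.0397, 1 of 8 genes against 0.141%) was the only call of AOS against wild type. It was lost in 25 of 37 alternatives, which include leaving out any of 20 of the 28 arrays. Without any 1 of the 4 arrays compared the adjusted p lay between 0.0684 and 0.257.

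**Figure D2:**
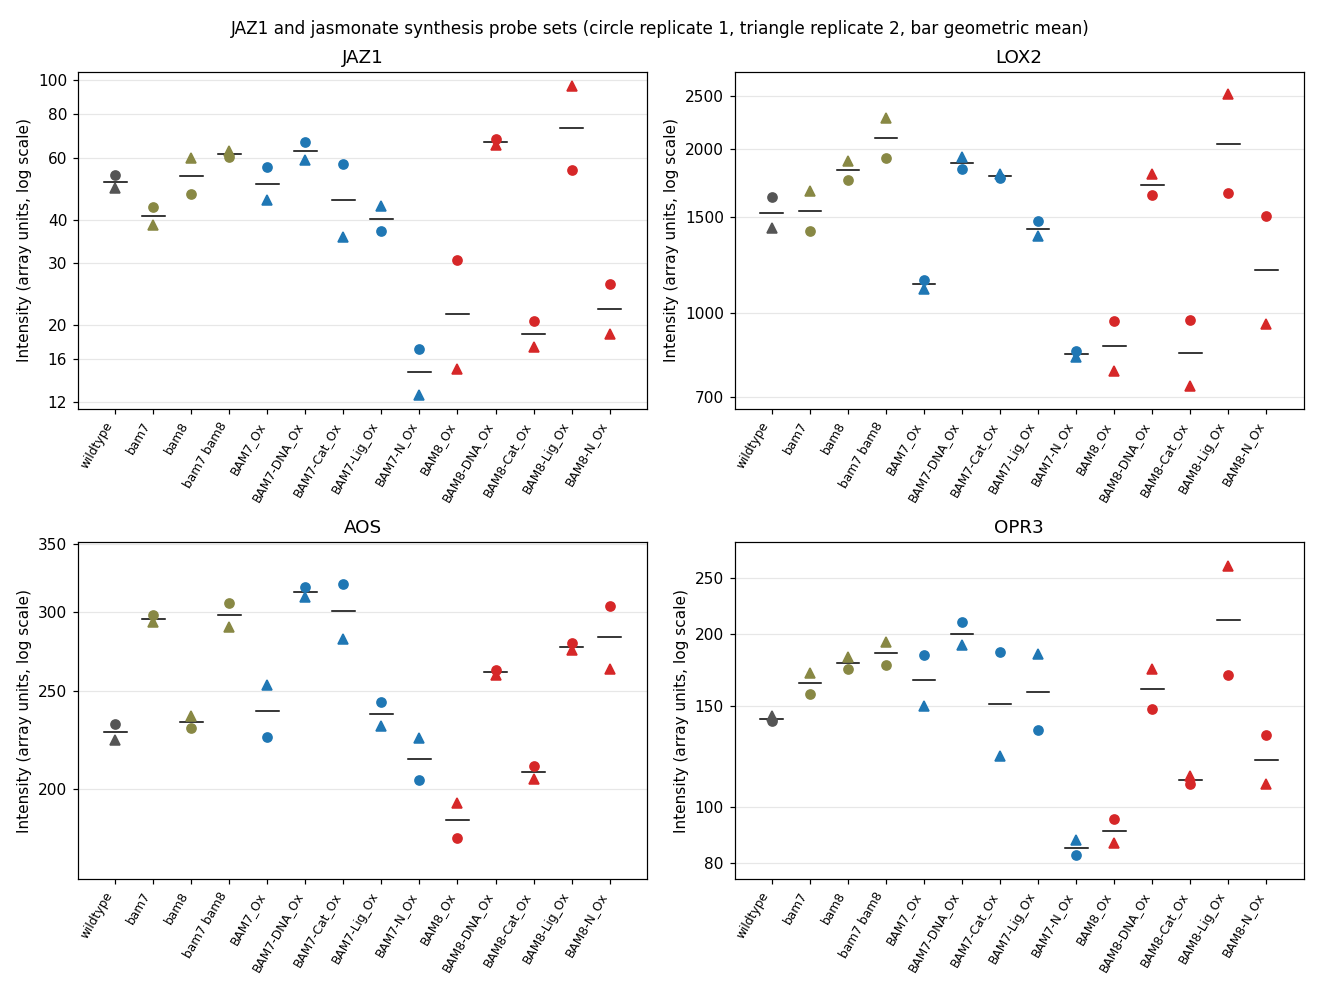
Intensity of JAZ1 and of the synthesis genes LOX2, AOS and OPR3 (log axes, intensity units) in each array, by group, with a circle for replicate 1, a triangle for replicate 2 and a bar at their geometric mean. JAZ1 and OPR3 have their lowest means in BAM7-N_Ox, BAM8_Ox, BAM8-Cat_Ox and BAM8-N_Ox, LOX2 is low in the first 3 of these, and AOS is lowest in BAM8_Ox.

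Each suffixed line was also compared with BAM7_Ox or BAM8_Ox, whichever has its protein, where 14 of 64 tests of these genes were called, 12 higher and 2 lower, against 1.08% of all probe sets. Compared with BAM8_Ox, 8 of the 8 genes had a higher mean in BAM8-Lig_Ox, 7 in BAM8-N_Ox, 5 in BAM8-Cat_Ox and 4 in BAM8-DNA_Ox. In BAM8-Lig_Ox the median difference was 1.01 beside -0.03 over all probe sets, and 4 genes were called, against 0.813%. JAZ1 rose by 1.77 (3.4-fold, limma adjusted p = 0.00547), LOX2 by 1.24 (adjusted p = 0.0033), OPR3 by 1.22 (adjusted p = 0.0037) and AOS by 0.57 (adjusted p = 0.00228). The AOS call held without each single array. Without BAM8_Ox replicate 2 the other 3 were no longer called, with JAZ1 at 1.25 (adjusted p = 0.0959), LOX2 at 1.08 (0.0575) and OPR3 at 1.15 (0.0501). The same happened without BAM8-Lig_Ox replicate 2, with JAZ1 at 1.37 (adjusted p = 0.108), LOX2 at 0.94 (0.0757) and OPR3 at 0.90 (0.0823).

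In BAM8-DNA_Ox against BAM8_Ox, 3 genes were called, all higher, against 0.73%, while both defensins, JAZ10 and CORI3 had a lower mean and were not called. JAZ1 rose by 1.64 (limma adjusted p = 0.00857), LOX2 by 0.99 (adjusted p = 0.0175) and AOS by 0.49 (adjusted p = 0.00744), while OPR3 at 0.82 was not called (adjusted p = 0.0627). Without BAM8_Ox replicate 2 JAZ1 stood at 1.12 (adjusted p = 0.165) and LOX2 at 0.84 (adjusted p = 0.198). Without BAM8_Ox replicate 1 AOS stood at 0.43 (adjusted p = 0.0613). Without either BAM8-DNA_Ox array all 3 calls were lost, at adjusted p between 0.0532 and 0.186. The 4 comparisons with BAM8_Ox share its 2 arrays, and BAM8_Ox itself had the lowest or a low reading of all 3 synthesis genes. Against wild type, neither line had a called gene among the 8, against 0.0308% for BAM8-Lig_Ox and 0.0528% for BAM8-DNA_Ox. At an unadjusted p under 0.05 there were 5 and 3, beside 3839 and 3698 of all 22746 probe sets.

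BAM8-Cat_Ox had no called gene against BAM8_Ox in the limma fit, against 0.106% of all probe sets. At an unadjusted p under 0.05 it had 1 of 8, beside 1530 of all 22746 probe sets. Among the BAM7 lines, the DNA, Cat and Lig forms had none against BAM7_Ox, where the background was 0.444%, 1.6% and 0.193%. At an unadjusted p under 0.05 there were 3, 3 and 0, beside 1946, 5327 and 2379 of all probe sets. BAM7_Ox against wild type had none either (0.0264%, 2 unadjusted beside 3111 of all probe sets). The same holds for BAM7-Cat_Ox (0.0659%, 3 unadjusted beside 2371) and BAM7-Lig_Ox (0.0264%, 2 unadjusted beside 1428). Thus the calls among the BAM7 lines came from the N form and, for AOS against wild type, from the DNA form.

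**Figure D3:**
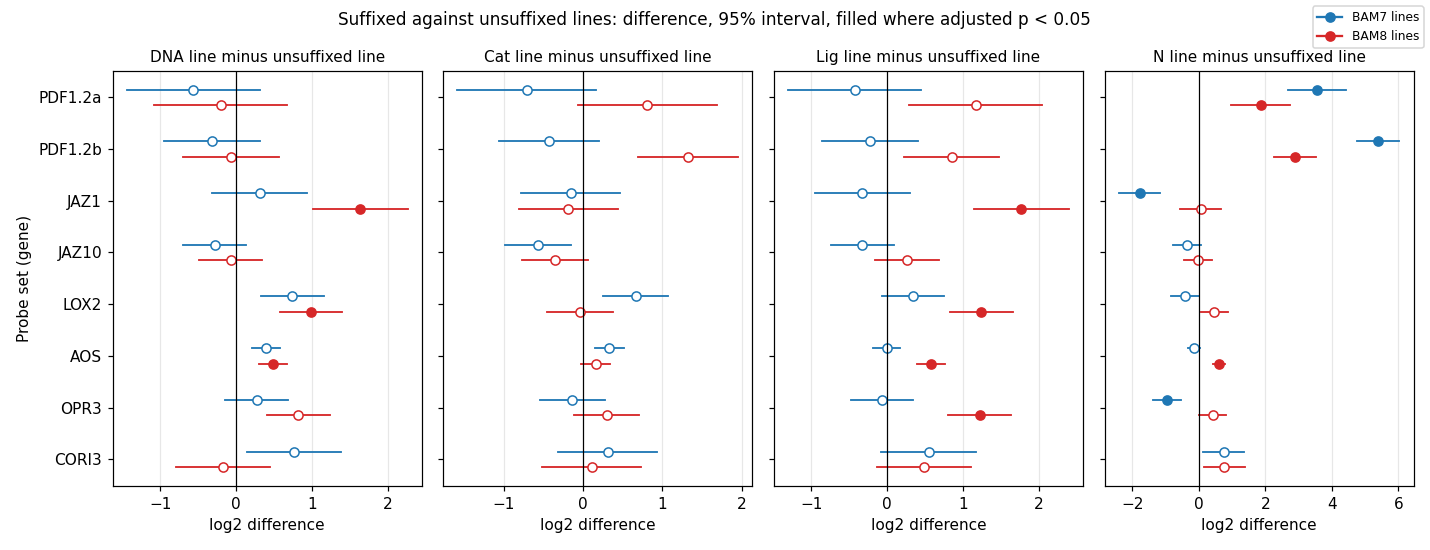
Log2 difference of each suffixed line from BAM7_Ox or BAM8_Ox for the 8 genes, with BAM7 and BAM8 lines side by side, as points with 95% confidence intervals from the limma fit, filled where the adjusted p is under 0.05. PDF1.2b in BAM7-N_Ox reaches 5.4, and JAZ1, LOX2 and OPR3 lie above 0 in BAM8-Lig_Ox (1.77, 1.24 and 1.22).

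Lines of the 2 proteins with the same suffix were compared directly, with 6 of 40 tests called, 1 higher and 5 lower in the BAM8 line, against 0.652%. For Cat, the BAM8 line was lower in JAZ1 by 1.27 (limma adjusted p = 0.0378), in LOX2 by 1.08 (adjusted p = 0.00924) and in AOS by 0.53 (adjusted p = 0.00449), against 1.51% of all probe sets. With array weights, which were lowest for the BAM7-Cat_Ox arrays (0.47), none of the 3 was called (adjusted p = 0.065 for AOS, 0.131 for LOX2 and 0.275 for JAZ1). The AOS call held without each single array. JAZ1 was lost without 5 of the 28 arrays, among them BAM7-Cat_Ox replicate 1 (-0.92, adjusted p = 0.108) and either BAM8-Cat_Ox array (adjusted p = 0.0573 and 0.247). LOX2 was lost without BAM8-Cat_Ox replicate 2 (-0.88, adjusted p = 0.133) and without BAM7-Cat_Ox replicate 2 (adjusted p = 0.0504). BAM7-Cat_Ox replicates differed in JAZ1 (57.79 and 35.66) and OPR3 (186.1 and 122.9).

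For Lig, all 8 genes had a higher mean in the BAM8 line. In the limma fit 0 were called, against 0.215% of all probe sets. At an unadjusted p under 0.05 there were 6 of 8, beside 2580 of all 22746 probe sets. The unsuffixed lines, BAM8_Ox against BAM7_Ox, gave 0 calls too (0.374%, 4 unadjusted beside 2101 of all probe sets). There OPR3 stood at -0.87 (limma adjusted p = 0.0674), JAZ1 at -1.24 (0.0923) and AOS at -0.36 (0.0944). For DNA there were 0 calls (0.347%, 1 unadjusted beside 1875 of all probe sets).

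The test of whether a suffix changed BAM8 lines differently from BAM7 lines called 6 of 32 tests, 5 higher and 1 lower, against 0.334%. For Lig, JAZ1 (2.1, limma adjusted p = 0.0333), OPR3 (1.28, adjusted p = 0.0449) and AOS (0.58, adjusted p = 0.039) were called, against 0.519% of all probe sets. JAZ1 read 56.63 and 45.39 in BAM7_Ox but 37.16 and 43.63 in BAM7-Lig_Ox, and it read 30.68 and 14.99 in BAM8_Ox but 55.36 and 96.16 in BAM8-Lig_Ox. The Lig line was thus the lower one for BAM7 and the higher one for BAM8. For N, besides PDF1.2b, OPR3 (1.38, adjusted p = 0.0296) and AOS (0.76, adjusted p = 0.00579) were called, and JAZ1 at 1.83 was not (adjusted p = 0.0635). These tests compare 8 arrays each. In all 37 alternatives, the OPR3 call for Lig was lost in 28, that of AOS for Lig in 20, and those of JAZ1 for Lig and OPR3 for N in 9 each. Of the 8 arrays compared for Lig, JAZ1 stayed called only without BAM8-Lig_Ox replicate 1 or BAM8_Ox replicate 1, with adjusted p between 0.0559 and 0.147 otherwise. AOS stayed called only without BAM7_Ox replicate 1 (0.0518 to 0.121 otherwise), and OPR3 only without BAM7-Lig_Ox replicate 2, BAM8-Lig_Ox replicate 1 or BAM8_Ox replicate 1 (0.0612 to 0.214 otherwise). For N, OPR3 stayed called only without BAM8-N_Ox replicate 2, BAM7_Ox replicate 2 or BAM8_Ox replicate 1 (0.0802 to 0.182 otherwise), and AOS was lost without BAM8-N_Ox replicate 1 (0.66, adjusted p = 0.0525). For DNA and Cat 0 were called (0.264% and 0.0044% of all probe sets). Unadjusted there were 2 and 3 of 8, beside 2261 and 2841 of all 22746 probe sets.

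In the loss-of-function mutants 0 of the 8 genes were called against wild type in the limma fit. The background was 0.0572% for bam7, 0.0044% for bam8 and 0.18% for bam7 bam8. At an unadjusted p under 0.05 there were 3, 1 and 4 of the 8, beside 3165, 1455 and 2195 of all 22746 probe sets. In bam7, PDF1.2a (23.19 and 11.99, difference -1.4) and PDF1.2b (-1.30) ranked 2 and 3 of all probe sets by size of difference, and neither was called (adjusted p = 0.209 and 0.131). AOS gave 0.37 in bam7 (adjusted p = 0.131) and 0.39 in bam7 bam8 (adjusted p = 0.117), and its arrays in both lines lay above both wild type arrays. In bam8, AOS read 230 and 236.4, around the wild type values. Setting the double mutant against each single mutant, and testing the interaction of both mutations, gave 0 calls of 24 in the limma fit (0.0865%, 5 unadjusted). The background was 0.0747% against bam7, 0.136% against bam8 and 0.0484% for the interaction. Unadjusted, in the same order, 1, 1 and 3 of the 8 stood beside 1402, 1611 and 1855 of all probe sets. With array weights, 1 was called, AOS in bam7 bam8 against bam8.

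JAZ10, a JAZ gene whose splice variants give repressors resistant to breakdown, and CORI3, an aminotransferase gene named for its induction by coronatine, a bacterial mimic of jasmonoyl-isoleucine, were called in 0 of the 33 comparisons in the limma fit, with 4 for JAZ10 and 5 for CORI3 at an unadjusted p under 0.05. JAZ10 ranged from 7.25 in BAM7-Cat_Ox replicate 1, an array value below that array's own 25th percentile, to 15.52 in BAM8-Lig_Ox. Its readings lay between the 22.1 and 42.5 percentile of their arrays, below the array median each time. No detection calls were used, so whether JAZ10 was detected was not tested. The BAM8-Lig_Ox arrays, at 15.52 and 15.49, lay above all other arrays, but several groups reached near them in 1 array, such as BAM8_Ox (15.43 and 10.89) and BAM8-N_Ox (14.88 and 10.84). The difference of BAM8-Lig_Ox from wild type (9.62 and 10.04) was 0.66 (limma adjusted p = 0.21). CORI3 ranged from 367.2 in BAM7_Ox to 1309 in BAM8-N_Ox, with replicates far apart in the highest groups, at 1309 and 801.7 in BAM8-N_Ox and 1228 and 578.1 in BAM8-Lig_Ox. The difference of BAM8-N_Ox from wild type (677.8 and 480.7) was 0.84 (adjusted p = 0.117). The F test over groups called CORI3 when BAM8-Lig_Ox replicate 1 was left out (adjusted p = 0.0398). In the order of group means, 11 of 13 steps of JAZ10 and 12 of 13 of CORI3 joined overlapping groups.

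**Figure D4:**
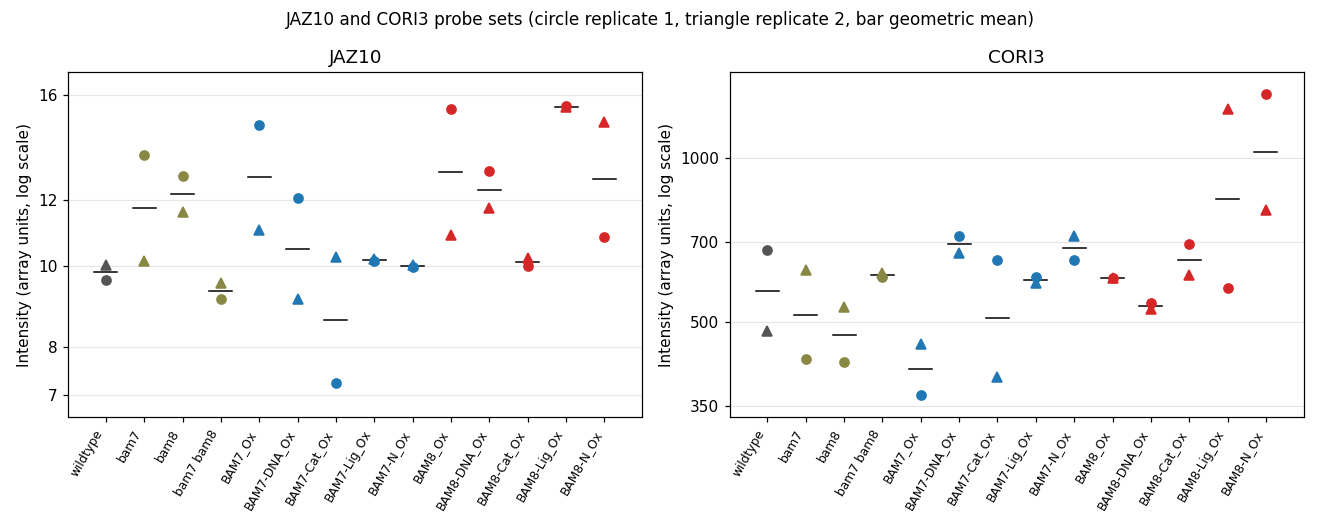
Intensity of JAZ10 and CORI3 (log axes, intensity units) in each array, by group, with 1 point per array and a bar at the geometric mean of the 2 arrays. BAM8-Lig_Ox is highest for JAZ10 (15.52 and 15.49), and the 2 arrays of BAM8-N_Ox and of BAM8-Lig_Ox lie far apart for CORI3.

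How the genes varied together over the groups is given as correlations of group means, as a description without a test, since both values of a point come from the same arrays. Groups fall into 2 sets by JAZ1, so r is given within the 10 groups where it was high, a choice made on JAZ1 itself that narrows its range. There JAZ1 had r = 0.66 with OPR3, 0.59 with LOX2 and 0.07 with PDF1.2b, and PDF1.2a had 0.91 with PDF1.2b. Pairs without JAZ1 had values of similar size. LOX2 had r = 0.66 with CORI3, 0.56 with OPR3 and 0.56 with AOS, and OPR3 had 0.62 with CORI3. The values with CORI3 held only within these 10 groups. Over all 14 groups CORI3 had r = -0.08 with LOX2 and -0.18 with OPR3. LOX2 there had 0.89 with OPR3 and 0.76 with AOS, values that include the gap between the 2 sets. The set of 4 groups is too small for a correlation. In the 4 groups of low JAZ1 the defensins ranged from the highest of all groups in BAM7-N_Ox to among the lowest in BAM8_Ox. BAM8_Ox and BAM7-N_Ox thus both had low JAZ1, LOX2 and OPR3 readings, while PDF1.2b was highest in BAM7-N_Ox and next to lowest in BAM8_Ox. The lowest PDF1.2b was in BAM8-DNA_Ox, a group of high JAZ1.

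**Figure D5:**
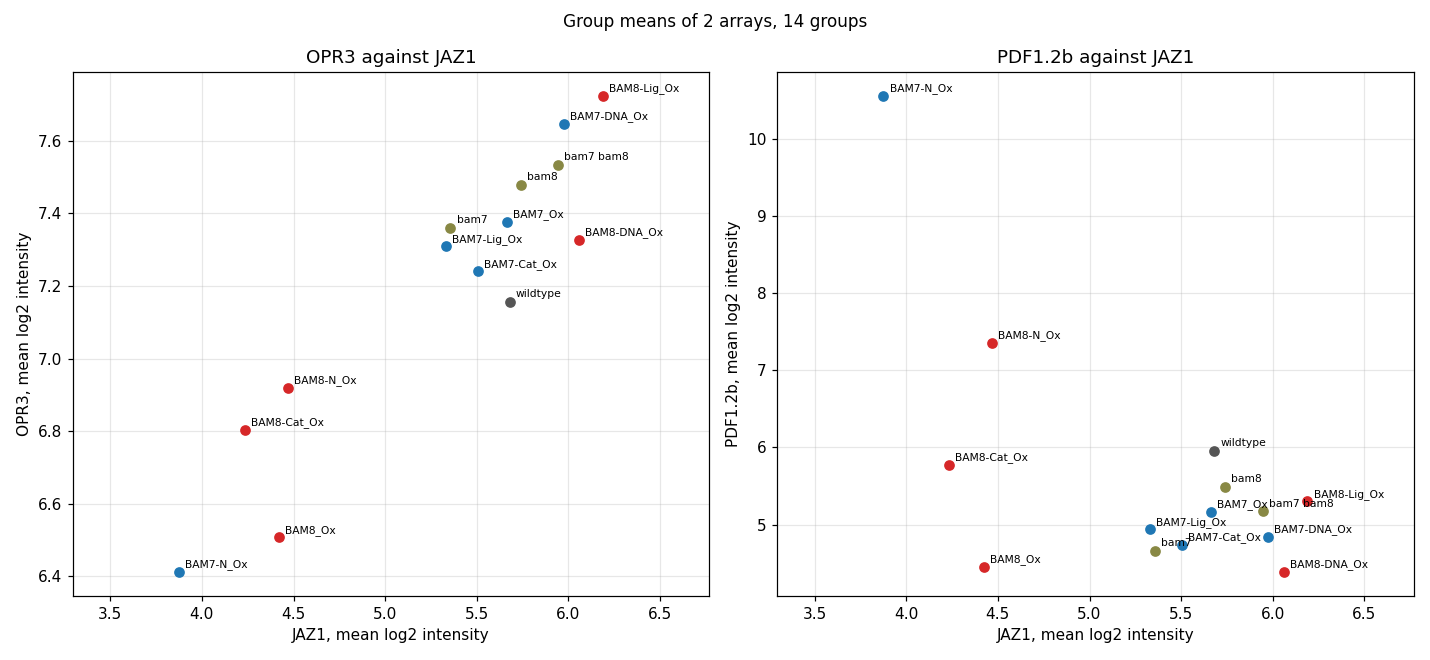
Group means of OPR3 against JAZ1 (left) and of PDF1.2b against JAZ1 (right), as mean log2 intensity of 2 arrays, with 1 point per group and no error bars. BAM7-N_Ox and BAM8_Ox lie among the 4 groups low in JAZ1 and OPR3 while PDF1.2b is highest in BAM7-N_Ox and near its lowest in BAM8_Ox, as it is in BAM8-DNA_Ox, where JAZ1 is high.

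Among 1365 probe sets that varied enough between groups to be ranked (SD of group means at least 0.25), the one whose group means were most like PDF1.2b was 246195_AT (r = 0.96 over 14 groups, 0.88 without BAM7-N_Ox). It read 37 in wild type, 77.3 in BAM7-N_Ox and 53.9 in BAM8-N_Ox as geometric means. For PDF1.2a it was 250662_AT (r = 0.94, and 0.79 without BAM7-N_Ox), at 6.96 in wild type, 22.7 in BAM7-N_Ox and 10.1 in BAM8-N_Ox. In the groups other than the N lines 250662_AT read 6.03 to 7.85, near the arrays' 25th percentiles of 6.78 to 8.37. Both 246195_AT and 250662_AT were among the likest to each defensin. 250279_AT was among the likest to JAZ1, LOX2 and OPR3 alike, with r = 0.93 to JAZ1 over 14 groups. That value includes the gap between the low and the high set of JAZ1. OPR3 likewise had r = 0.93 with JAZ1 over 14 groups, against 0.66 within the 10 groups of high JAZ1. 250279_AT read 25.8 in wild type, 14.2 in BAM7-N_Ox, 15.1 in BAM8_Ox and 30.8 in BAM8-Lig_Ox. The genes behind these 3 probe sets are not named in the files used.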

How the data were processed

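Each array's deposited column holds linear intensity values between 2.89 and 22277. The submitters' processing notes name RMA alone, without a version, and that the authors deposited antilogs of RMA output is inferred from this range. Detection calls were not used. Arrays have no depth, and their number limits the precision. After log2 transformation, 22746 probe sets were tested with no filter on low values and 1 control probe set was set aside. All 28 arrays entered a limma 3.58.1 fit with a mean for each group (R 4.3.3, 14 residual degrees of freedom, 17.7 after moderation). Two-sided moderated tests were run for 33 contrasts, which gave 264 tests of the 8 genes, with Benjamini-Hochberg adjustment within each contrast over all probe sets. With 2 arrays a group an exact permutation test of a single gene could not go below p = 0.333, so the calls rest on a spread pooled over groups and probe sets. Likeness was the correlation of group means, over probe sets with an SD of at least 0.25, and of the 5 likest per gene only the first for each defensin and 1 shared by JAZ1, LOX2 and OPR3 are named. The members, gene lists and tests were chosen with earlier results of these data known. The 6 pathway lists, of 62 loci, could not be matched to probe sets and were not used. The fit was checked on simulated data. Plots used matplotlib 3.10.9 and Python 3.11.15.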

Additional observations from a re-analysis of the deposited data

Results flagged for a closer look

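These 6 results were singled out because a suffix shifted a gene differently in BAM8 lines than in BAM7 lines, by limma's test of the difference itself. For Lig, the shift of BAM8 minus that of BAM7 was 2.1 for JAZ1 (adjusted p = 0.0333), 0.58 for AOS (0.039) and 1.28 for OPR3 (0.0449). For N, it was -2.50 for PDF1.2b (adjusted p = 0.00852), 0.76 for AOS (0.00579) and 1.38 for OPR3 (0.0296). All 6 use the arrays of BAM7_Ox and BAM8_Ox, and JAZ1 in BAM8_Ox read 30.68 in replicate 1 and 14.99 in replicate 2. Cyclic loess, and a covariate made of each array's 25th percentile, each ended the 3 Lig calls and that of OPR3 for N, which left 2.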

How the results depend on the processing

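Of 36 called results of the 8 genes, 0 changed direction in any alternative, 6 kept the call in all alternatives and 11 kept it without every single array. Numbers of calls below are in the order lines against wild type, suffixed against unsuffixed lines, double mutant, BAM8 against BAM7, suffix by protein, and F test, and stood at 10, 14, 0, 6, 6 and 6 as reported. Fitting only the groups compared gave 6, 6, 0, 0 and 0 (F test not run), with 2 to 4 residual degrees of freedom. Of the 6 and 6, 3 and 4 were among the calls reported, so that 29 of 36 were lost. A covariate made of each array's 25th percentile gave 4 against wild type and 2 for suffix by protein, cyclic loess gave 2 for suffix by protein, and array weights gave 1 for the double mutant and ended all 3 calls between BAM8-Cat_Ox and BAM7-Cat_Ox. The cause was not tested. Dropping dim probe sets so that 15164 stayed, robust estimation with a variance trend, log2(value + 16) and a fit without BAM7-Cat_Ox each moved no count by more than 1.5 times. The replicate number as a block gave 8, 14, 0, 6, 5 and 6. Replicate numbers did not pair the samples across all groups (correlation of deviations from the group means -0.38 to 0.43, median 0.01, over 0.1 in 24 of 91 pairs of groups). Whether some groups shared a batch was not tested. Leaving out 1 array gave 3 to 12, 8 to 16, 0 to 0, 4 to 7, 2 to 7 and 6 to 7, lowest against wild type without wild type replicate 1 (3) and for suffixed lines without BAM8_Ox replicate 2 (8). A group left with 1 array is assumed to vary like the others. Some uncalled differences from wild type gained a call in the 9 alternatives other than leaving out 1 array. PDF1.2b in BAM8-DNA_Ox did so in 4, AOS in BAM8-N_Ox in 3 and LOX2 in BAM8-Cat_Ox in 2. Of 98 uncalled differences followed for their size or unadjusted p, 2, both of PDF1.2a, changed sign. BAM8-Cat_Ox against wild type (-0.73) ran from -1.54 without BAM8-Cat_Ox replicate 1 to 0.076 without replicate 2, and BAM7-DNA_Ox against BAM7_Ox (-0.57) from -1.21 without BAM7_Ox replicate 1 to 0.074 without replicate 2.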
